A study of Mus musculus with 8 samples.

Results

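Malat1 and Neat1 are long noncoding RNAs that stay in the nucleus, and their genes are neighbours on mouse chromosome 19. The eCLIP peaks of the RNA demethylase ALKBH5 on these RNAs are described here. Members are all peaks that overlap by at least 1 bp the interval of Malat1 (chromosome 19 from 5845700 to 5852700, 7001 bp, GRCm39) or of Neat1 (5874700 to 5895600, 20901 bp). Of 72953 peaks in 4 peak lists, 35 are members, 14 on Malat1 and 21 on Neat1. Full-length replicates 1 and 2 contributed 11 and 12 of them and del-cIDR replicates 1 and 2 contributed 7 and 5. The members were chosen by position, and the intervals were proposed with the peak values of these lists known. All values are therefore given as a description, with no test, and with 2 libraries per genotype a two-sided exact permutation p could not fall below 0.333.

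The cells were E14TG2a, a mouse embryonic stem cell line grown with LIF, PD0325901 and CHIR99021, and RNA was taken from isolated nuclei after UV crosslinking. Wild-type cells carry full-length endogenous ALKBH5 (full-length below). Cells of the Alkbh5 del-cIDR genotype have the endogenous protein shortened by the disordered stretch at its C-terminus, the cIDR (del-cIDR below). Each genotype had an immunoprecipitate and an input in 2 replicates, 8 samples in all, and the lists of the 4 immunoprecipitates were used. The labels do not say whether replicates were separate cultures or whether the del-cIDR cells are 1 clone. Read depth is unknown, and peak lists hold no expression values, so neither the RNA level of Malat1 and Neat1 nor the stem cell markers could be checked, and more binding cannot be told apart from more RNA. Each list is the authors' own, with a fold enrichment (signal over the peak caller's background) and a −log10 q for each peak. Ranks count from 1 at the highest −log10 q of a list, and the list lengths were 19892 and 16636 for full-length and 17584 and 18841 for del-cIDR. Peaks carry no strand.

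ALKBH5 removes the N6-methyladenosine (m6A) mark from RNA. Malat1 is a very abundant RNA of nuclear speckles, the bodies rich in splicing factors, and it is a well-known carrier of m6A. Its 3′ end forms a triple helix in place of a poly(A) tail, after a small tRNA-like RNA, mascRNA, has been cut off. Neat1 is the scaffold of paraspeckles. It has a short form and a long form that start at the same place, and the long form is the one that builds the paraspeckle. Both genes are transcribed towards lower coordinates, so the upper end of each interval is taken as its 5′ end. RefSeq (GRCm38.p6) gives Malat1 on the minus strand. For Neat1 the strand is general knowledge and not from the tables used here, and all 5′ and 3′ positions on Neat1 rest on it. RefSeq gives annotated lengths of 6983 bp for Malat1 and 20773 bp for Neat1, close to the interval lengths. Its positions belong to another build and were not used.

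On Malat1 the del-cIDR peaks ran through most of the RNA to near its 3′ end, and the full-length peaks lay in a short stretch of the 5′ part. Peaks covered 862 and 1568 bp of the interval in full-length replicates 1 and 2, and 4893 and 4932 bp in del-cIDR replicates 1 and 2. Both del-cIDR libraries were above both full-length libraries, and the del-cIDR libraries were nearly equal to each other. As a share of the interval this was 17.4% ± 7.13 for full-length and 70.2% ± 0.394 for del-cIDR (SD, n = 2 each), a 4.04-fold difference in covered bases and larger than the replicate spread. The numbers of peaks were 2 and 3 in full-length and 5 and 4 in del-cIDR. Counting depends on where a library breaks a stretch into peaks. With peaks of a library within 500 bp joined, an alternative chosen after the data were seen, the numbers became 2 and 1 against 1 and 1.

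**Figure D1:**
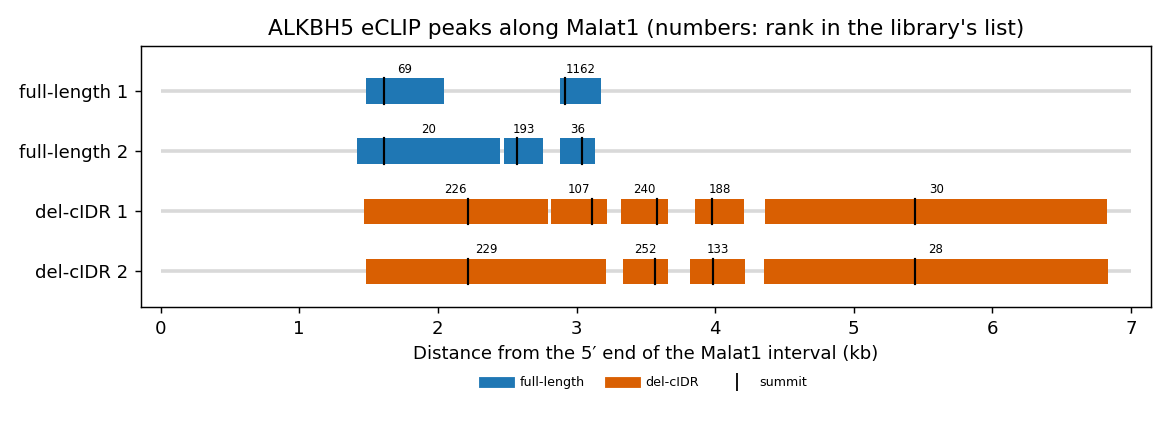
Peaks of each library (bars) and their summits (black lines) along the Malat1 interval, in kb from its 5′ end, with full-length in blue and del-cIDR in orange and each peak's rank by −log10 q above it. Full-length peaks end within 3.18 kb of the 5′ end, and del-cIDR peaks reach 6.83 kb.

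The 3′ part of Malat1 held the strongest del-cIDR peak of the locus and no full-length peak. In del-cIDR replicate 1 this peak spanned 5845871 to 5848340 (2470 bp), with 3.01-fold enrichment and a −log10 q of 4237. In replicate 2 it spanned 5845869 to 5848348 (2480 bp), with 3.31-fold enrichment and a −log10 q of 4724. The ends differed by 2 and 8 bp, and both summits lay on base 5847257, which is 5443 bp from the 5′ end. It ranked 30 and 28 in the del-cIDR lists. By width it was number 5 and number 9 of these lists. Next to it towards the 5′ end lay a peak from 5848490 to 5848842 in replicate 1 and from 5848484 to 5848882 in replicate 2, with ranks 188 and 133. A further peak began at 5849042 in both del-cIDR libraries, with ranks 240 and 252 and 1.75-fold and 1.77-fold enrichment. These 3 del-cIDR peaks are 3 of the 4 merged regions of Malat1, where a merged region joins overlapping peaks of all lists. Only 135, 159 and 104 bp without a peak separated the 4 regions, so their number depends on where the lists break this stretch. Over all 43029 merged regions, 17.7% had a peak in both del-cIDR lists and in no full-length list.

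The remaining merged region, from 5849481 to 5851284, held peaks of all 4 libraries, as did 4.7% of all merged regions. All 5 full-length peaks of Malat1 lay in it. Full-length replicate 1 had a peak from 5850655 to 5851219 (rank 69, 1.66-fold) and another from 5849524 to 5849820 (rank 1162, 1.27-fold). Full-length replicate 2 had peaks from 5850253 to 5851284 (rank 20, 2.00-fold), from 5849943 to 5850222 (rank 193, 1.54-fold) and from 5849566 to 5849821 (rank 36, 2.08-fold). The best rank was thus that of replicate 2, and the lowest that of replicate 1. Del-cIDR replicate 1 had peaks from 5849906 to 5851236 (rank 226) and from 5849481 to 5849884 (rank 107), separated by 21 bp. Del-cIDR replicate 2 had a single peak there from 5849486 to 5851217 (rank 229).

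Although all libraries marked this 5′ region, the summits of its leading full-length peak stood at other bases than those of the overlapping del-cIDR peak. The full-length summits of the leading peak were at 5851089 and 5851090 in replicates 1 and 2, 1611 and 1610 bp from the 5′ end. Del-cIDR summits of the overlapping peak were at 5850482 and 5850481, 2218 and 2219 bp from the 5′ end. Within a genotype these summits were 1 bp apart, and between genotypes 607 to 609 bp apart. For comparison, summits of overlapping peaks were at most 10 bases apart for 14.8% of full-length replicate 1 peaks and 33.4% of del-cIDR replicate 1 peaks that overlapped a replicate 2 peak. Between genotypes this held for 31.4% and 29.6% of full-length replicate 1 peaks that overlapped a peak of del-cIDR replicate 1 or 2, and for 10.4% and 10.7% of those of full-length replicate 2. On Malat1 this held for 1 full-length peak of 2 and for 3 del-cIDR peaks of 5. The summits of the other peak that both full-length libraries had were 128 bp apart, at 5849786 and 5849658, and the latter was 67 bp from a del-cIDR replicate 1 summit at 5849591, so here the genotypes did not stand apart.

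Base by base, 818 bp of Malat1 lay under peaks of all 4 libraries, 3312 bp under both del-cIDR lists and no full-length list, and 0 bp under both full-length lists alone. The 3312 bp were 66.0% of the Malat1 bases under any peak, where the class makes up 14.5% of all bases under any peak of the 4 lists. Bases of both full-length lists alone make up 23.8% of that total and bases of all 4 lists 2.53%, against 16.3% on Malat1. Cut into 5 equal parts from the 5′ end, the interval had no peak in part 1 in any library. The 5′-most 1416 bp were free of peaks in all 4 lists. Part 2 was covered to 40.4% and 93.7% in full-length and 95.1% and 94.1% in del-cIDR replicates. In part 4 the values were 0% and 0% against 89.4% and 90.4%, and in part 5 they were 0% and 0% against 87.8% and 87.9%. Among the parts with peaks, the genotype means were thus closest in part 2, through full-length replicate 2 alone. From part 3 on they were further apart. Coverage in part 3 was 21.2% and 18.3% in full-length and 77.2% and 79.9% in del-cIDR libraries.

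Neat1 had the opposite layout. Del-cIDR peaks lay almost only at the 5′ end, and full-length peaks were scattered along the body of the RNA as well. The interval held 9 and 9 peaks in full-length and 2 and 1 in del-cIDR replicates, so both full-length counts were above both del-cIDR counts. Covered bases were 6035 and 4952 in full-length and 3760 and 3264 in del-cIDR replicates. As a share of the interval this was 26.3% ± 3.66 for full-length and 16.8% ± 1.68 for del-cIDR (SD, n = 2 each), 1.56 times as much in full-length. This difference in covered bases rested on weak peaks. With only peaks at a −log10 q of at least 5 the values were 4771 and 3343 against 3760 and 3264 bp, and the libraries of the genotypes overlapped. The peak numbers stayed apart under that limit, at 6 and 5 against 2 and 1.

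**Figure D2:**
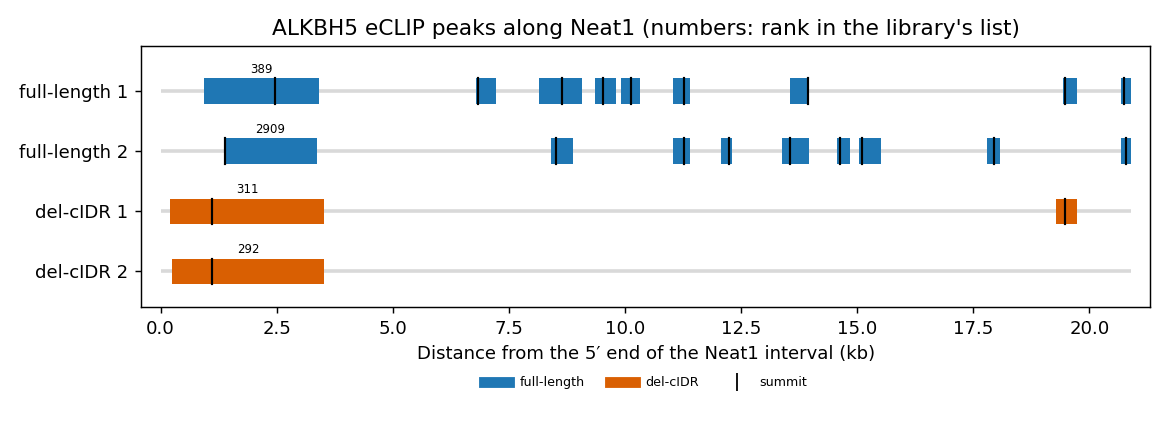
Peaks of each library (bars) and their summits (black lines) along the Neat1 interval, in kb from its 5′ end, with full-length in blue and del-cIDR in orange and the rank by −log10 q above the peak at the 5′ end. All 4 libraries have a wide peak at the 5′ end, and full-length libraries have 8 further peaks each.

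The 5′ end of Neat1, where both of its forms start, held a wide peak in all 4 libraries. It spanned 5892183 to 5894660 (2478 bp) in full-length replicate 1 and 5892222 to 5894244 (2023 bp) in full-length replicate 2. In del-cIDR replicates 1 and 2 it spanned 5892075 to 5895393 (3319 bp) and 5892087 to 5895350 (3264 bp). The lower ends lay within 147 bp of each other in all libraries, and the upper ends reached 690 to 1149 bp further in del-cIDR, so the del-cIDR peaks were longer on the side of the transcript start. All 4 lists covered 2023 bp together and both del-cIDR lists alone a further 690 bp beyond 5894660. Fold enrichment was 4.89 and 1.76 in full-length and 3.80 and 3.99 in del-cIDR replicates. Ranks were 389 and 2909 in full-length and 311 and 292 in del-cIDR replicates. Full-length replicate 2 thus stood apart, with a low fold and a −log10 q of 36.2 against 350.2, 468 and 499 in the others. Without that library, the best ranks differ by -87.5 (del-cIDR minus full-length), and with it by -1347.5.

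Summits of this peak agreed between del-cIDR replicates, at 5894498 and 5894497, 1102 and 1103 bp from the 5′ end. In full-length replicates they were at 5893127 and 5894212, which is 1085 bp apart. The full-length summits lay 1370 and 1371 bp (replicate 1) and 286 and 285 bp (replicate 2) further from the 5′ end than the del-cIDR summits. No position for a full-length maximum can be given from 2 libraries that differ this much.

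The wide peaks of both RNAs were among the widest of the del-cIDR lists. Peaks of 2 kb or wider made up 0.091% and 0.138% of the del-cIDR lists, 16 and 26 peaks, and 2 in each list were on Malat1 and Neat1. The Neat1 peak was number 1 by width in del-cIDR replicate 1 and number 2 in replicate 2. In full-length lists 4.15% and 2.17% of peaks were this wide, 825 and 361 peaks, and the Neat1 peak was number 553 and 350 by width. No full-length peak on Malat1 was this wide, the widest being 565 and 1032 bp.

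Beyond its 5′ end, Neat1 held full-length peaks of middle to low rank and nearly no del-cIDR peaks. Of 13 merged regions, 4 had a peak in both full-length lists and in no del-cIDR list, against 17.5% of all merged regions. The best ranked of them lay near the middle of the RNA, from 5884197 to 5884563 in replicate 1 (3.03-fold, rank 6965) and from 5884209 to 5884559 in replicate 2 (3.28-fold, rank 6478). Its summits were 6 bp apart, at 5884329 and 5884335. The others were a region from 5886515 to 5887459 (ranks 11148 and 9261), a region from 5881634 to 5882225 (ranks 19442 and 14516) and a region across the 3′ end of the interval from 5874589 to 5874915 (ranks 11015 and 11139). Of these 4 regions, the best ranked stood at 35.0% and 38.9% of the way down the lists of full-length replicates 1 and 2. The lowest rank of the 4 was at 97.7% of the way, in replicate 1.

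A further 7 merged regions of Neat1 held a peak of a single library, and all 7 of these peaks were full-length, 3 in replicate 1 and 4 in replicate 2. Over all merged regions, 52.8% held a peak of a single library and 25.2% a peak of a single full-length library. Their fold enrichments ran from 1.77 to 2.49. Near the 3′ end, a region from 5875864 to 5876313 held a peak of full-length replicate 1 (2.61-fold, rank 11273) and of del-cIDR replicate 1 (2.65-fold, rank 6962), with summits 7 bp apart. It was the only del-cIDR peak of Neat1 outside the 5′ end. Cut into 5 equal parts from the 5′ end, part 1 was covered to 59.3% and 48.4% in full-length and 79.4% and 78.1% in del-cIDR replicates. In part 2 the values were 15.6% and 0% against 0% and 0%. Part 3 was covered to 47.0% and 25.5% in full-length and 0% in both del-cIDR libraries. Part 4 was covered to 10.0% and 32.3% in full-length and 0% in both del-cIDR libraries. In part 5 the values were 12.5% and 12.2% against 10.6% and 0%. Parts 1, 3 and 4 thus separated the genotypes more clearly than parts 2 and 5. On Neat1, 1432 bp lay under both full-length lists and no del-cIDR list and 786 bp under both del-cIDR lists and no full-length list. These are 16.8% and 9.24% of the Neat1 bases under any peak, both below the 23.8% and 14.5% of all covered bases. Bases under all 4 lists made up 23.8% of the Neat1 bases under any peak, above the 2.53% of all covered bases.

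**Figure D3:**
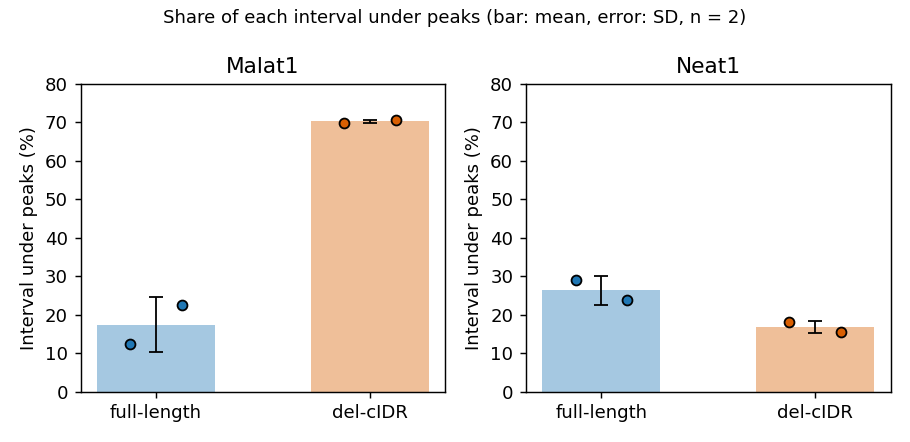
Share of the Malat1 interval (left) and of the Neat1 interval (right) under peaks, in percent, for each library (points), with the mean (bar) and SD (error bar) of 2 libraries per genotype. On Malat1 del-cIDR is higher (70.2% against 17.4%), and on Neat1 full-length is higher (26.3% against 16.8%).

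Most Malat1 peaks combined a very high −log10 q with a fold enrichment below the median of their list, which was 3.80 and 3.60 in full-length and 3.17 and 3.16 in del-cIDR replicates. Their fold enrichment ran from 1.27 to 2.08 in full-length and from 1.69 to 3.31 in del-cIDR libraries, and 13 of 14 ranked among the first 500 of their list. The 3′ peak of del-cIDR was near the middle by fold enrichment, above 44.3% and 54.6% of the peaks of its lists. By −log10 q the best rank of a Malat1 peak was 69 and 20 in full-length and 30 and 28 in del-cIDR replicates. Ordered by fold enrichment, the best rank was 19710 and 15462 in full-length and 9799 and 8553 in del-cIDR replicates. In full-length replicate 2 these best ranks belonged to different peaks. The peak ranked 20 by −log10 q was at 15724 by fold enrichment. Peaks with a fold enrichment under 2 made up 0.6% and 1.2% of the first 500 ranks in full-length and 1.6% and 1.2% in del-cIDR lists. Malat1 supplied 1 of 3 and 1 of 6 of them in full-length, and 3 of 8 and 2 of 6 in del-cIDR lists. By −log10 q the best rank of Malat1 itself did not separate the genotypes, at 69 and 20 against 30 and 28. By fold enrichment both del-cIDR libraries had a better best rank than both full-length libraries. A fold enrichment of at least 4 was reached by no Malat1 peak in any library and on Neat1 by the 5′ peak of full-length replicate 1 alone.

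**Figure D4:**
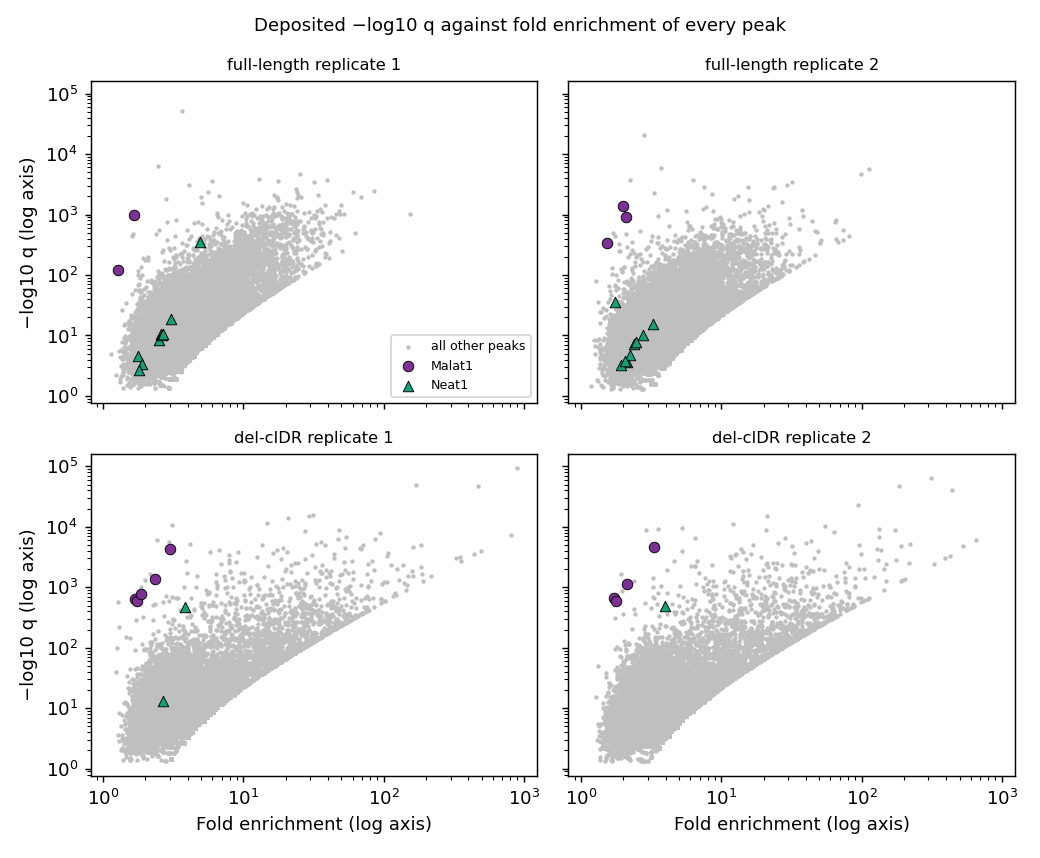
Deposited −log10 q against fold enrichment (both log axes) for every peak of the 4 lists (grey), with Malat1 (purple circles) and Neat1 (green triangles). Malat1 peaks lie high on the −log10 q axis, with fold enrichment between 1.27 and 3.31, the highest of which is near the list median in del-cIDR.

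The surroundings held short peaks that ranked below Malat1 and the 5′ peak of Neat1 by −log10 q. On chromosome 19 from 5.7 to 6.0 Mb outside the intervals there were 7 and 3 full-length and 11 and 20 del-cIDR peaks, 41 in all. They covered 0.951% and 0.340% of the 272099 bp in full-length and 1.45% and 2.81% in del-cIDR replicates, far below the share of Malat1 or Neat1 in the same libraries. Their best ranks were 5833 and 4498 in full-length and 3666 and 3168 in del-cIDR lists, and the widest peak was 753 bp. These ranks were above those of the Neat1 peaks outside the 5′ end. By fold enrichment the highest neighbours reached 3.49 and 7.59 in full-length and 10.5 and 11.2 in del-cIDR, the last 3 above every Malat1 or Neat1 peak of the same library. Of the 26 merged regions, 7 were in both del-cIDR lists only, 0 in both full-length lists only and 1 in all 4 lists. Over all 43029 merged regions these classes made up 17.7%, 17.5% and 4.7%. Of the other neighbouring regions, 15 held a peak of a single library and 3 had other combinations of libraries. Del-cIDR peaks outnumbered full-length peaks in these surroundings, as on Malat1, while on Neat1 full-length peaks were more numerous.

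**Figure D5:**
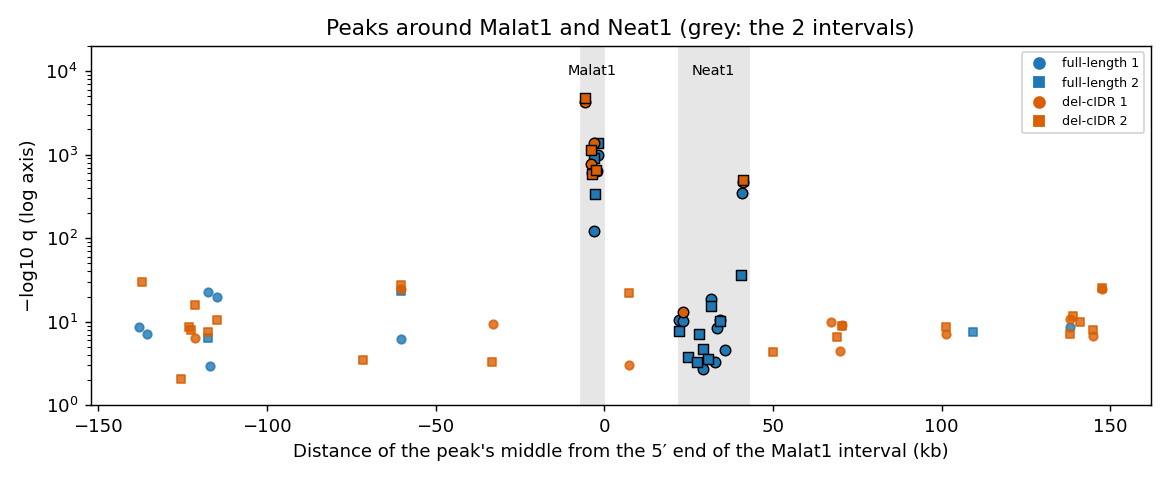
−log10 q (log axis) of the peaks around both intervals (grey bands) against the distance of the peak's middle from the 5′ end of the Malat1 interval in kb, with full-length in blue, del-cIDR in orange, replicate 1 as circles and replicate 2 as squares. All Malat1 peaks and the 5′ peak of Neat1 stand above the neighbouring peaks.

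The neighbouring region in all 4 lists lay from 5792274 to 5792574, with 2.66-fold and 7.59-fold enrichment in full-length and 10.5-fold and 11.2-fold in del-cIDR replicates. Between the Malat1 and Neat1 intervals, both del-cIDR libraries had a peak from 5860003 to 5860303 (2.28-fold and 5.42-fold, ranks 16761 and 4248), and neither full-length library did. It was the peak nearest to the Malat1 interval in del-cIDR libraries, 7304 and 7303 bp above it. The other del-cIDR-only regions were from 5731194 to 5731915 and from 5819398 to 5819893 below Malat1, and from 5922899 to 5923416, 5953769 to 5954250, 5997419 to 5997894 and 5999861 to 6000659 above Neat1. Neighbouring peaks were not assigned to genes. The peak nearest to the Neat1 interval on its 5′ side was 6818 bp away, in del-cIDR replicate 2, and the next library's was 24102 bp away, so the 5′ peak of Neat1 is not the edge of a longer run of peaks.

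Other places in the genome had a like amount of coverage in the 4 libraries. Peaks of all lists were joined within 5 kb into 22462 clusters outside both intervals, and likeness was the distance between log2 covered bases (plus 100) over the 4 libraries. The cluster nearest to Malat1 was on chromosome 7 from 127567464 to 127581435, at a distance of 0.49, with 686 and 1269 bp in full-length and 4522 and 4146 bp in del-cIDR replicates. It was followed by clusters on chromosome 3 from 88253737 to 88269798 (0.62), chromosome 7 from 4742851 to 4755920 (0.68), chromosome 2 from 174108046 to 174128184 (0.69) and chromosome 15 from 37984073 to 38013811 (0.77). The cluster nearest to Neat1 was on chromosome 9 from 120762716 to 120789894, at a distance of 0.43, with 6343 and 4940 bp in full-length and 4071 and 2427 bp in del-cIDR replicates. Next were chromosome 17 from 35367973 to 35379900 (0.45), chromosome 9 from 121567841 to 121585941 (0.47), chromosome 10 from 86526497 to 86541269 (0.50) and chromosome 17 from 88282710 to 88298510 (0.66). The 5 clusters nearest to Malat1 span 13070 to 29739 bp, longer than its interval, and those nearest to Neat1 span 11928 to 27179 bp, of which 4 are shorter than its interval. Likeness here describes amounts, not shared sequence or position.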

How the data were processed

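The submitters' processing notes name 4 tools (MACS2, STAR, cutadapt and UMI-tools) and the build GRCm39. Versions, settings and the control of the peak calling are not stated in the labels. The authors deposited a peak list per immunoprecipitate replicate. Each peak has a deposited fold enrichment (a ratio over the caller's background), −log10 p-value and −log10 q-value, a score and a summit given as a distance of another kind, in bases from the peak start. Lists named wt were taken as full-length and those named KI as del-cIDR, the only other genotype. All deposited peaks were used.

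Positions are 1-based. Coverage, merged regions, ranks by −log10 q (ties by fold enrichment) and clusters were computed with pandas 2.3.3 and numpy 2.4.6, and the merging was tested on simulated lists. The members and lists were chosen with earlier results of these data known. By the naming rule every member peak is accounted for, with neighbours found in both lists of a genotype and the 5 nearest clusters. Alternatives were a lower limit of 2 or 4 on fold enrichment or of 5 on −log10 q, lists of the same length, 50% of the peak inside, intervals widened by 1 kb, ranks by fold enrichment and each library left out. No GRCm39 genome was used here, so no peak sequence is shown, and the gene lists planned for comparison were not analysed here.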

Additional observations from a re-analysis of the deposited data

How the results depend on the processing

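Values here are del-cIDR mean minus full-length mean. Leaving out each library in turn gave 3344.5 to 4050.5 covered bp on Malat1 (3697.5 with all libraries) and -2523 to -1440 bp on Neat1 (-1981.5), 1.5 to 2.5 peaks on Malat1 and -8 to -7 on Neat1, and best ranks of -40 to 9 on Malat1 and -2607.5 to -87.5 on Neat1. The sign of the Malat1 best rank turned without full-length replicate 1. With a fold enrichment of at least 2, the differences became 2232.5 covered bp and 1 peak on Malat1, and -96.5 covered bp, -5 peaks and a best rank of -3074 on Neat1. At that limit the Malat1 peak numbers of the genotypes overlapped, at 0 and 2 in full-length against 2 and 2 in del-cIDR. The Neat1 covered bases overlapped too, at 4771 and 2446 against 3760 and 3264 bp. At a fold enrichment of at least 4 no Malat1 peak was left in any library, so its differences were 0 covered bp and 0 peaks with no rank, and Neat1 gave -1239 covered bp and -0.5 peaks, with no rank for del-cIDR. A −log10 q of at least 5 gave -545 covered bp and -4 peaks on Neat1. Lists of the same length gave -1349.5 covered bp and -6 peaks on Neat1. Joining peaks within 500 bp, chosen after the data were seen, gave -0.5 peaks on Malat1, a change of direction, and -6 on Neat1. Ranks by fold enrichment differed by -8410 on Malat1. The Malat1 difference in covered bases kept its sign under all alternatives but the limit of 4-fold. The cause of these shifts was not tested. No paired analysis was possible because the results come from no test, and whether the replicate numbers pair the libraries is not known. Read depth is unknown, so peak number, width and −log10 q may follow depth as well as binding.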

Other observations

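The 5′-most 1416 bp of the Malat1 interval and the 3258 bp of Neat1 from 5888817 to 5892074, just downstream of its 5′ peak, held no peak in any of the 4 lists. On Malat1 the last 169 bp at the 3′ end were also free of peaks. Within the del-cIDR part of Malat1, gaps of 135, 159 and 104 bp without a peak in any list separated the 4 merged regions.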
